A study of Homo sapiens with 6 samples.

Results

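The NRF2 oxidative stress genes examined here are 8 genes: *NFE2L2*, which encodes the transcription factor NRF2, *KEAP1*, which encodes its sensor and inhibitor, and 6 target genes, *NQO1*, *GCLM*, *GCLC*, *TXNRD1*, *SRXN1* and *SLC7A11*. They were taken by symbol from the gene count table, in which all 8 were present among 30017 symbols, and all 8 passed the filter on low counts that left 14758 genes for testing. RNA-seq of total RNA after removal of ribosomal RNA was available from 6 libraries of a BLaER subclone, a human B cell leukemia line that turns into macrophage-like cells when the transcription factor C/EBPα is activated. In this subclone the insulator protein CTCF carries an auxin-inducible degron, and addition of the auxin IAA leads to its degradation. The 3 groups had 2 biological replicates each: cells at 0 h, before induction (0 h), cells that had transdifferentiated for 96 h with no IAA (96 h control), and cells that had done so for 96 h in the presence of IAA from the start (96 h CTCF-depleted). All groups carry the degron and the inducible C/EBPα, both groups at 96 h received 17β-estradiol, IL-3 and CSF-1, and all libraries come from 1 subclone. Cells without a degron that received IAA were not analysed here, so an effect of the chemical itself and an effect of CTCF loss cannot be told apart. The question put to these genes was whether the IAA-treated cells carry the transcript pattern of chemical stress.

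NRF2 is a basic leucine zipper factor that controls the main defence of cells against oxidants and electrophiles. In unstressed cells KEAP1, an adaptor of a CUL3 ubiquitin ligase, binds newly made NRF2 and sends it for degradation. Reactive chemicals modify cysteines of KEAP1, NRF2 then accumulates, pairs with a small MAF protein and binds antioxidant response elements near its target genes, where the repressor BACH1 competes for the same sites. This control acts on the protein, so the *NFE2L2* transcript does not measure NRF2 activity and the target transcripts are the usual readout. Macrophages use the same genes to withstand the oxidants that they make and the heme and iron that they take up.

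The core of an antioxidant response element was searched as TGACNNNGC, on both strands, in RefSeq promoter windows (GRCh38.p14, 250 bases before to 50 bases after each start site). A match was present in 3 of the 7 members that had a window, *GCLM*, *KEAP1* and *TXNRD1*, compared with 4384 of all 27305 genes with a window (16.1%) and 4687 of all 35116 windows (13.3%). *NFE2L2*, *NQO1*, *GCLC* and *SRXN1* had a window without these letters. Sequence outside the windows was not searched, so elements further from a start site would be missed. The matches are shown to place the letters that an NRF2 dimer is known to bind beside the members' values. Each line gives 30 bases of hg38 in the 5′ to 3′ direction of the strand named, with the match in capitals.

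GCLM, chr1:93909446-93909475, plus strand, 34 bases before a start site: tggaagacaaTGACTAAGCagaaatcgtag
KEAP1, chr19:10502784-10502813, plus strand, 31 bases before a start site: caggtcaccaTGACTAAGCagagccgggcg
KEAP1, chr19:10502806-10502835, minus strand, 54 bases before a start site: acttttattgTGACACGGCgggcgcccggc
TXNRD1, chr12:104215670-104215699, plus strand, 99 bases before a start site: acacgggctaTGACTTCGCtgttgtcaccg
TXNRD1, chr12:104215760-104215789, minus strand, 8 bases before a start site: ctgtgggaacTGACGGAGCcgaaggacgcc
TXNRD1, chr12:104286919-104286948, minus strand, 102 bases before a start site: agagtcagaaTGACAAAGCagaaatccact

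The *GCLM* match and the first *KEAP1* match hold the same 9 letters, TGACTAAGC. A match describes the sequence and is not a bound site, and binding of NRF2 was not measured in these libraries.

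Total counts per library ranged from 9273470 to 12718780, and replicates differed by more than sampling noise (chi-square per degree of freedom from 1.71 to 2.69), so they were used as separate samples. The 8 B cell markers were lower and the 8 macrophage markers were higher in both groups at 96 h than at 0 h. Summed over the list, B cell markers stood at 2979 to 2980.3 CPM (read counts scaled to the TMM-normalised library size) at 0 h, 427 to 436 in control and 439 to 452 in CTCF-depleted libraries. Macrophage markers summed to 50.7 to 52.7, 5118 to 5369.5 and 5019 to 5047 CPM in the same order. Of 5 T cell genes, *CD3D* and *CD3G* had no count in any library, and the list summed to at most 0.103 CPM at 0 h, 3.52 to 3.62 in control and 5.16 to 5.28 in depleted libraries, nearly all of it at 96 h from *CD2*, which rose from 0 counts at 0 h to 38 and 40 in control and 54 and 55 in depleted libraries. Of 6 epithelial and fibroblast genes, *EPCAM*, *CDH1* and *DCN* had no count in any library, and the list summed to 10.4 to 11.6 CPM at 0 h, 3.15 to 4.06 in control and 3.78 to 3.89 in depleted libraries. *COL1A1* made up most of it at 0 h, at 10.4 and 11.5 CPM, and fell by 1.70 on the log2 scale to control (SE 0.21, adjusted p = 2.36e-10). *CTCF* transcript, which the degron does not act on, was 231 and 214 CPM at 0 h, 181 and 174 in control and 191 and 189 in CTCF-depleted libraries (control to depleted log2 fold change 0.10, standard error (SE) 0.05, adjusted p = 0.119). In bulk RNA, fewer cells of a type and less RNA per cell cannot be told apart.

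At 96 h, none of the 8 NRF2 genes differed between CTCF-depleted and control cells in edgeR's quasi-likelihood test at the cut-offs that the study set for DESeq2, its own tool, which are an adjusted p below 0.01 and a log2 fold change beyond 0.6 in either direction. These thresholds called 5.41% of all tested genes higher and 7.03% lower. The count of members was also 0 with DESeq2. The share of all genes that DESeq2 called is not given, here or below, and all percentages are from edgeR. In edgeR, 4 members had an unadjusted p below 0.05, *TXNRD1*, *SRXN1* and *GCLC* on the higher side and *NFE2L2* on the lower. Of all tested genes, 19.4% were higher and 26.2% lower at that unadjusted p. On the adjusted p alone, *SRXN1* and *TXNRD1* were higher and no member was lower, where 12.0% of all tested genes were higher and 17.4% lower. At an adjusted p below 0.05 with no limit on the fold change, 3 members were higher and 0 lower, beside 16.1% and 22.6% of all tested genes. Both depleted libraries lay above both control libraries for 5 members and below them for 3, so the groups did not overlap for any of the 8. Across all tested genes this was so for 30.1% in the higher and 37.8% in the lower direction, and with 2 libraries against 2 a permutation test cannot give a two-sided p below 0.333. The log2 fold changes of the members ran from -0.13 to 0.41, with a median of 0.12 beside -0.03 for all tested genes. Without regard to sign the median was 0.16 for the members and 0.23 for all tested genes. For the 6 target genes alone both medians were 0.20, with 4 values above 0 and 2 below. The 95% intervals of all 8 lay within a 2-fold change in either direction (-0.33 to 0.73 at their widest), and those of 6 lay within 0.6 on the log2 scale. The exceptions were *NQO1*, whose interval reached 0.73, and *SRXN1*, whose interval reached 0.61.

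**Figure D1:**
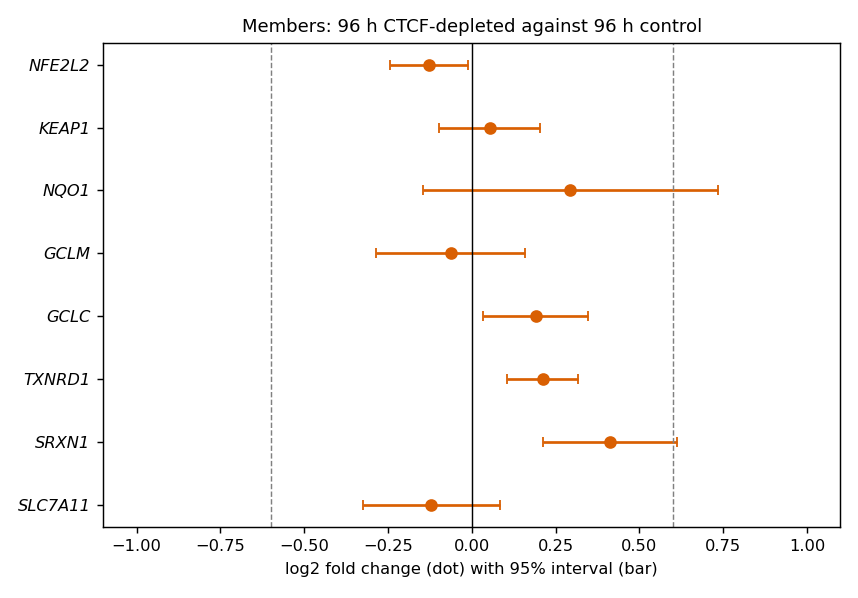
Log2 fold change of each of the 8 NRF2 genes between 96 h CTCF-depleted and 96 h control cells (points, with 95% intervals from edgeR), with dashed lines at the fold change threshold of 0.6 on either side. Every point lies between the dashed lines, from -0.13 for *NFE2L2* to 0.41 for *SRXN1*.

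From 0 h to 96 h in control cells, the same genes moved in both directions. *NFE2L2*, *NQO1*, *GCLM* and *SRXN1* rose, *TXNRD1* fell, and *KEAP1*, *GCLC* and *SLC7A11* did not pass both thresholds, in a comparison that called 25.4% of all tested genes higher and 22.9% lower. The median log2 fold change of the members was 0.37 beside 0.02 for all tested genes, and the median size was 0.92 beside 0.66. In CTCF-depleted cells the comparison with 0 h called 27.2% of all tested genes higher and 25.2% lower, and again 4 members were higher, 1 was lower and 3 were neither. At an adjusted p below 0.05 with no limit on the fold change, 4 members were higher and 3 lower than at 0 h in each group. The same rule called 38.0% of all tested genes higher and 37.3% lower in control cells, and 39.2% and 38.3% in depleted cells. Both comparisons use the same 0 h libraries.

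*NFE2L2* (hg38, chromosome 2, 177218667 to 177392756, minus strand) had 52.3 and 50.3 CPM at 0 h, 153 and 155 in control and 139 and 142 in CTCF-depleted libraries. The 0 h libraries were lowest, the control libraries highest, and no groups overlapped. The transcript rose in control cells (log2 fold change 1.59, SE 0.06, adjusted p = 3.74e-30) and by 1.46 on the log2 scale in depleted cells (SE 0.06, adjusted p = 2.67e-28). Between the groups at 96 h the log2 fold change was -0.13 (SE 0.06, 95% interval -0.24 to -0.01, adjusted p = 0.0725). *KEAP1* (chromosome 19, 10486125 to 10503558, minus strand) had 72.0 and 76.7 CPM at 0 h, 61.6 and 64.6 in control and 64.8 and 66.1 in depleted libraries. Its levels were highest at 0 h and close together at 96 h, with a log2 fold change of -0.24 from 0 h to control (SE 0.07, adjusted p = 0.00309) and 0.05 from control to depleted cells (SE 0.07, 95% interval -0.10 to 0.20, adjusted p = 0.619).

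The pair *GCLC* and *GCLM* encodes the catalytic and the modifier subunit of glutamate-cysteine ligase, the first and rate-limiting enzyme of glutathione synthesis, and *SLC7A11* encodes the transporter that imports the cystine for it. *GCLC* (chromosome 6, 53497341 to 53616970, minus strand) was measured at 56.8 and 58.0 CPM at 0 h, 51.9 and 56.1 in control and 64.1 and 59.1 in depleted libraries. Both depleted libraries were above the other 4. The difference between the groups at 96 h was 0.19 on the log2 scale (SE 0.08, 95% interval 0.03 to 0.35, adjusted p = 0.047), and that from 0 h to control was -0.09 (SE 0.08, adjusted p = 0.297). *GCLM* (chromosome 1, 93885199 to 93909456, minus strand) had 12.5 and 14.6 CPM at 0 h, 24.6 and 23.5 in control and 23.3 and 22.8 in depleted libraries. All 4 libraries at 96 h lay above both at 0 h, and both depleted libraries were just below both control libraries. *GCLM* rose from 0 h by 0.82 in control (SE 0.12, adjusted p = 1.87e-08) and 0.76 in depleted cells (SE 0.12, adjusted p = 1.47e-07), and differed by -0.06 between them (SE 0.11, 95% interval -0.29 to 0.16, adjusted p = 0.697). *SLC7A11* (chromosome 4, 138164097 to 138242349, minus strand) had 32.0 and 35.5 CPM at 0 h, 25.5 and 25.0 in control and 23.8 and 22.7 in depleted libraries. It was highest at 0 h and lowest with IAA, with a log2 fold change of -0.42 from 0 h to control (SE 0.10, adjusted p = 8.48e-05) and -0.12 from control to depleted cells (SE 0.10, 95% interval -0.33 to 0.08, adjusted p = 0.376).

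*TXNRD1* and *SRXN1* encode thioredoxin reductase 1, which keeps thioredoxin reduced, and sulfiredoxin, which restores peroxiredoxins that peroxide has over-oxidised. *TXNRD1* (chromosome 12, 104215779 to 104350307, plus strand) had 292 and 306 CPM at 0 h, 126 and 129.6 in control and 149 and 146 in depleted libraries. It fell in both groups, by 1.23 on the log2 scale in control (SE 0.05, adjusted p = 7.8e-30) and by 1.02 in depleted cells (SE 0.05, adjusted p = 2.78e-26). At 96 h both depleted libraries were above both control libraries, by 0.21 on the log2 scale (SE 0.05, 95% interval 0.10 to 0.32, adjusted p = 0.000991). *SRXN1* (chromosome 20, 646615 to 653200, minus strand) had 12.6 and 12.5 CPM at 0 h, 27.0 and 24.0 in control and 34.5 and 33.4 in depleted libraries. It rose by 1.02 in control (SE 0.12, adjusted p = 1.38e-11) and by 1.44 in depleted cells (SE 0.11, adjusted p = 1.49e-17), and the difference between the groups at 96 h, 0.41 (SE 0.10, 95% interval 0.21 to 0.61, adjusted p = 0.000588), was the largest of the 8 members. The adjusted p of this difference for *TXNRD1* was 0.0149 without control replicate 1. For *SRXN1* it was above 0.01 without control replicate 2 and with DESeq2, and reached 0.0357 over the 12 other fits.

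*NQO1* encodes a quinone reductase and is a widely used readout of NRF2 activity. It was the lowest member, with 21 and 37 counts at 0 h, 63 and 52 in control and 66 and 72 in depleted libraries (chromosome 16, 69706996 to 69726668, minus strand). These counts correspond to 2.17 and 2.78 CPM, 5.56 and 4.82 CPM, and 6.11 and 6.63 CPM. Both groups at 96 h were above 0 h, and both depleted libraries were above both control libraries. *NQO1* rose from 0 h by 1.04 in control (SE 0.26, adjusted p = 0.000305) and by 1.34 in depleted cells (SE 0.25, adjusted p = 3.58e-06). The rise in control cells did not pass with DESeq2 (adjusted p = 0.0131) or without control replicate 1 (log2 fold change 0.90, adjusted p = 0.0149). The difference between the groups at 96 h was 0.29 (SE 0.22, adjusted p = 0.308), and at this depth its 95% interval, -0.14 to 0.73, leaves room for a change past the fold change threshold.

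**Figure D2:**
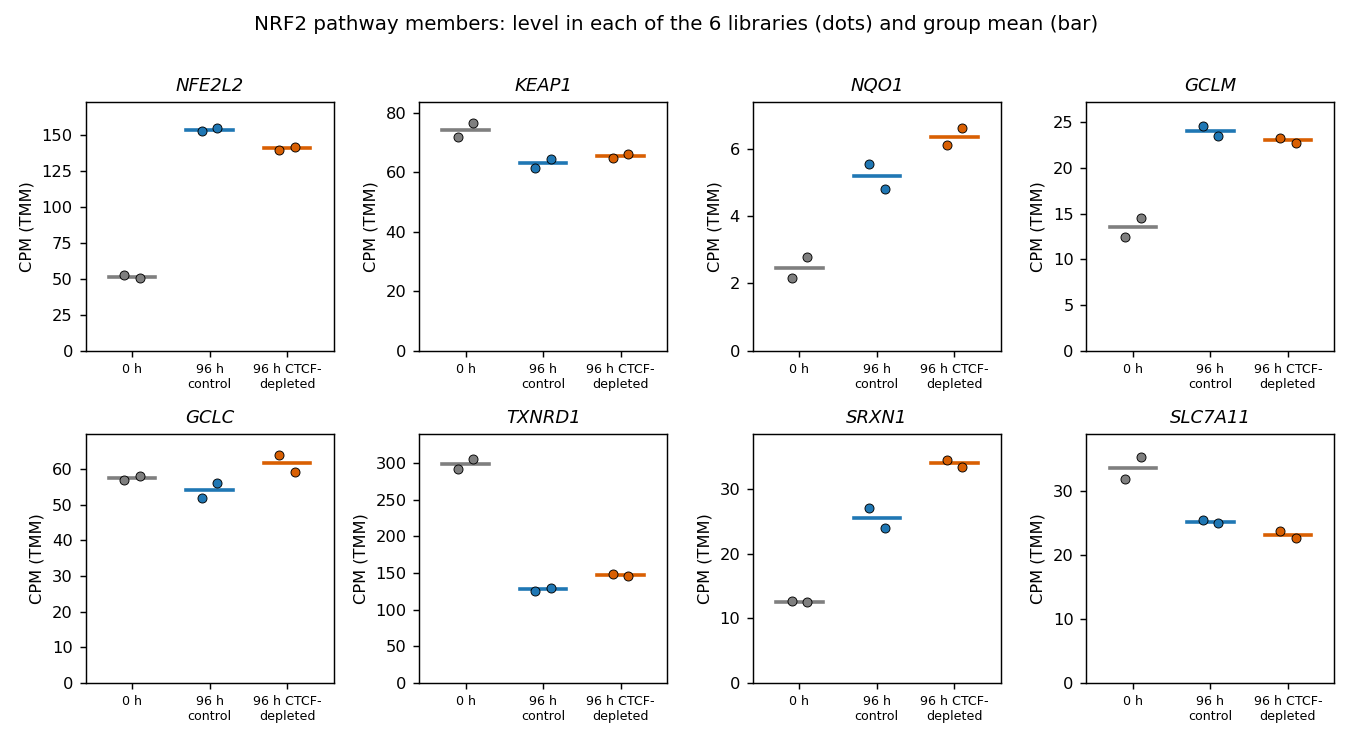
CPM of the 8 NRF2 genes in each of the 6 libraries (points) with the mean of each group of 2 (bars), 1 panel per gene. *NFE2L2*, *NQO1*, *GCLM* and *SRXN1* are higher and *TXNRD1* is lower in both groups at 96 h than at 0 h, and the depleted libraries lie furthest above the control libraries, in relation to their level, for *SRXN1* (34.5 and 33.4 against 27.0 and 24.0).

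**Figure D3:**
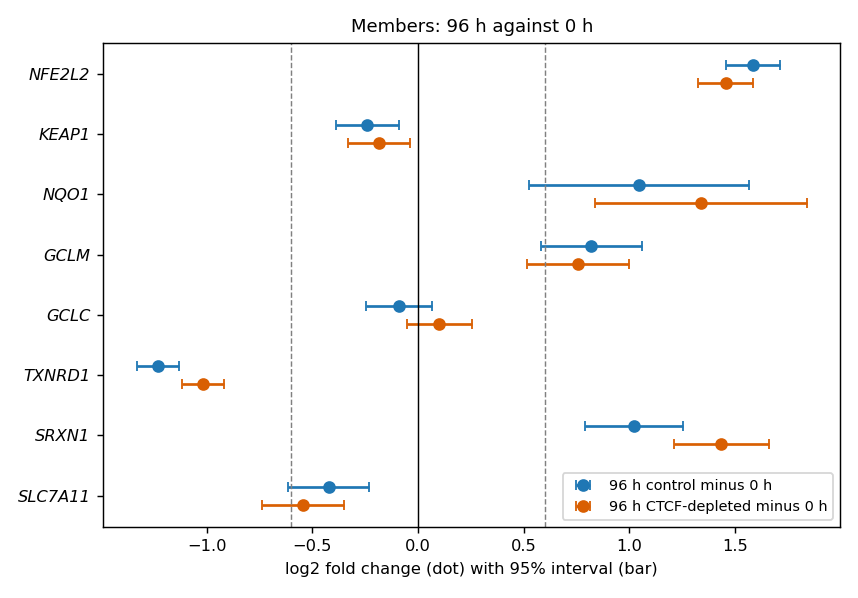
Log2 fold change from 0 h of the 8 NRF2 genes in 96 h control and 96 h CTCF-depleted cells (points, with 95% intervals from edgeR). The 2 comparisons share the 0 h libraries; *NFE2L2* has the highest value in both (1.59 and 1.46) and *TXNRD1* the lowest (-1.23 and -1.02).

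Levels of different members were compared as CPM per kb of merged exon length, as a description. At 0 h *TXNRD1* was highest at 56.0 CPM per kb, followed by *KEAP1* at 23.5, *GCLC* at 8.32, *SRXN1* at 4.97, *NFE2L2* at 4.11, *SLC7A11* at 3.50, *GCLM* at 2.75 and *NQO1* at 0.870. In control cells at 96 h the order was *TXNRD1* (23.9), *KEAP1* (20.0), *NFE2L2* (12.3), *SRXN1* (10.1), *GCLC* (7.83), *GCLM* (4.90), *SLC7A11* (2.62) and *NQO1* (1.83). In depleted cells *SRXN1* (13.4) stood above *NFE2L2* (11.3), and the order was otherwise that of control cells. The library ranges of neighbours in these orders did not overlap. The order depends on the length used, most of all for *NFE2L2*, whose merged exons span 12468 bases and whose canonical transcript has 2446. With the canonical length, chosen after seeing the data, *NFE2L2* stood first at 96 h, at 62.8 CPM per kb in control and 57.4 in depleted cells, ahead of *TXNRD1* at 33.0 and 38.2. At 0 h it then stood between *KEAP1* and *GCLC*, at 21.0. With that length *GCLC* also stood above *SRXN1* at 96 h (14.3 against 10.1 in control and 16.3 against 13.4 in depleted cells), and *NQO1* (2.53) and *SLC7A11* (2.41) overlapped in depleted cells.

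Exons of 5 members overlap those of another gene in GENCODE release 44. The annotation release and the strand setting of the counting are not given in the sources used here. *NFE2L2* shares positions with *AGPS*, *HNRNPA3* and a long noncoding RNA on the opposite strand, and with a long noncoding RNA on its own strand. *GCLC* overlaps *GCLC-AS1* on the opposite strand and a long noncoding RNA on its own strand. *SLC7A11* overlaps *SLC7A11-AS1*, and *NQO1* a long noncoding RNA, on the opposite strand. *SRXN1* overlaps a protein-coding gene on its own strand. Counts of these 5 may therefore be affected, in a way that depends on how reads in overlapping exons were treated, which is not given. *KEAP1*, *GCLM* and *TXNRD1* have no such overlap in this release. Over the 6 libraries the tested genes whose log2 CPM was most like that of *NFE2L2* were *C9orf139*, *RNF24* and *NOTCH2NL* (Pearson's r = 0.9998 each), among 1115 genes with r above 0.99. For *NQO1* they were *AGAP7*, *SNAP23* and *ZNF414* (r = 0.9993, 0.9990 and 0.9984), among 71. The 6 libraries form 3 groups that these values follow, so r describes 3 levels more than 6 points, and *NOTCH2NL* and *AGAP7* have near-identical copies that can share reads.

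A list of 28 other NRF2 target genes gave 20 that could be tested. Between the groups at 96 h, 1 was called higher (*GSR*), 2 lower (*HMOX1* and *SLC48A1*) and 17 neither, with a median log2 fold change of 0.08. Of all tested genes 5.41% were called higher and 7.03% lower, with a median of -0.03. *HMOX1*, heme oxygenase 1, which opens the heme ring and is controlled by NRF2 and BACH1, had 1 and 0 counts at 0 h, 594 and 530 in control and 212 and 219 in depleted libraries. These are 52.4 and 49.1 CPM in control and 19.6 and 20.2 in depleted libraries, with no overlap. It was lower in depleted cells by a log2 fold change of -1.35 (SE 0.10, 95% interval -1.55 to -1.15, adjusted p = 3.95e-17), and was called in all 11 other fits that kept the gene. Against the single count at 0 h, the 1124 control counts give a ratio of 1169.7 (exact 95% interval 209.5 to 46240.02, counting error only). *SLC48A1*, a heme transporter, had 7.01 and 6.68 CPM at 0 h, 16.0 and 13.9 in control and 8.98 and 9.76 in depleted libraries (control to depleted -0.67, SE 0.16, adjusted p = 0.000357). Its call was lost with DESeq2, without depleted replicate 1 and without control replicate 1, with adjusted p up to 0.0316. *GSR*, glutathione reductase, went the other way, with 209 and 205 CPM at 0 h, 149 and 156 in control and 253 and 242 in depleted libraries (0.70, SE 0.05, 95% interval 0.60 to 0.80, adjusted p = 8.9e-18), and was called in all 12 other fits. *OSGIN1*, a growth inhibitor named here after its values were seen, had 9 and 2 counts in control and 15 and 16 in depleted libraries (1.51, SE 0.55, adjusted p = 0.0256) and was not called.

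From 0 h to control, 9 of these 20 rose, 5 fell and 6 did neither, with a median of 0.62. Of all tested genes 25.4% were called higher and 22.9% lower, with a median of 0.02. *FTH1*, the heavy chain of the iron store ferritin, rose from 234 ± 21.1 to 2251 ± 1.77 CPM (SD, n = 2; log2 fold change 3.27, SE 0.05, adjusted p = 2.59e-49). *PRDX1*, a peroxide-reducing peroxiredoxin, fell from 526 ± 16.9 to 172 ± 2.40 CPM (-1.61, SE 0.05, adjusted p = 1.77e-36). The remaining 8 of the 28 were not tested: *ME1*, *AKR1B10* and *PIR* had no count in any library, and *AKR1C1*, *AKR1C2*, *AKR1C3*, *CBR3* and *GPX2* had at most 11. A count of 0 allows up to 3 counts, or 0.225 to 0.309 CPM by library.

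**Figure D4:**
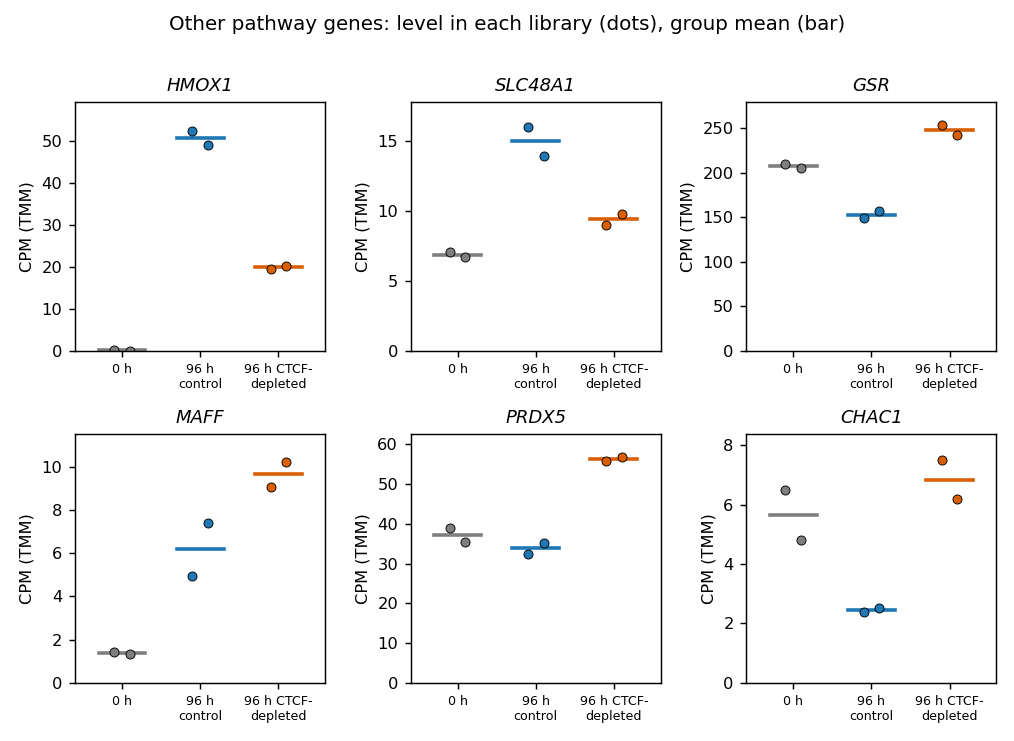
CPM per library (points, bars mark the mean of each group of 2) of *HMOX1*, *SLC48A1*, *GSR*, *MAFF*, *PRDX5* and *CHAC1*, which are outside the 8 members and were called between the groups at 96 h. *HMOX1* is at 52.4 and 49.1 in control and 19.6 and 20.2 in depleted libraries, and *GSR* at 149 and 156 against 253 and 242.

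Of 9 partners and regulators of NRF2, 1 was higher in depleted than in control cells, *MAFF*, and 8 were neither. The same thresholds called 5.41% of all tested genes higher and 7.03% lower. *MAFF* encodes a small MAF protein and had 1.44 and 1.35 CPM at 0 h, 4.94 and 7.41 in control and 9.07 and 10.2 in depleted libraries (control to depleted 0.65, SE 0.20, adjusted p = 0.0067). The call was lost with DESeq2, without depleted replicate 2 and without control replicate 1, with adjusted p up to 0.191. The repressor *BACH1* had 84.6 and 93.8 CPM at 0 h, 195 and 199 in control and 213 and 196 in depleted libraries. It rose with transdifferentiation (1.14, SE 0.06, adjusted p = 1.59e-25), and the groups at 96 h overlapped (0.05, SE 0.05, 95% interval -0.05 to 0.16, adjusted p = 0.472). From 0 h to control 4 of the 9 rose and 0 fell, beside 25.4% and 22.9% of all tested genes. At an unadjusted p below 0.05, 3 of the 9 were lower, where 37.9% of all tested genes were, and DESeq2 also called 0 lower. Among the 4 that rose were *MAFG*, another small MAF (1.20, SE 0.07, adjusted p = 1.05e-23), and the coactivator *CREBBP* (0.67, SE 0.05, adjusted p = 4.37e-19). The small MAF *MAFK*, named here after its values were seen, went the other way and was not called in either comparison. It had 42.9 and 45.9 CPM at 0 h, 36.5 and 33.1 in control and 28.3 and 23.8 in depleted libraries.

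Of 24 further glutathione and thiol enzymes, 21 were tested. In depleted cells the thresholds called 5.41% of all tested genes higher and 7.03% lower. Of these 21, 1 was higher, *PRDX5*, 0 were lower and 20 were neither, with a median of -0.10. At an unadjusted p below 0.05 there were 5 higher and 7 lower, beside 19.4% and 26.2% of all tested genes, and DESeq2 also called 0 lower. *PRDX5*, a mitochondrial and peroxisomal peroxiredoxin, had 32.4 and 35.2 CPM in control and 55.8 and 56.7 in depleted libraries (0.74, SE 0.08, adjusted p = 5.5e-11). Of the other peroxiredoxins of this list, *PRDX3*, *PRDX4* and *PRDX6* were lower and *PRDX2* was higher at that unadjusted p. During transdifferentiation in control cells 5 rose and 6 fell, beside 25.4% and 22.9% of all tested genes. *GPX1* and *GPX4*, glutathione peroxidases, rose by 2.22 (SE 0.06, adjusted p = 2.88e-40) and 1.09 (SE 0.06, adjusted p = 3.25e-24), and *SOD1*, cytosolic superoxide dismutase, fell by 1.24 (SE 0.06, adjusted p = 6.33e-26).

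*SLC7A11* is also a target of ATF4, the factor of the amino acid and unfolded protein stress response, so its partner *SLC3A2*, *ATF4* itself and genes it is known to control were read as a list of 12. In depleted cells 4 were higher, *ASNS*, *PSAT1*, *CHAC1* and *ATF3*, 1 was lower, *VLDLR*, and 7 were neither, with a median of 0.12. Of all tested genes 5.41% were called higher and 7.03% lower, with a median of -0.03. *CHAC1*, which degrades glutathione, had 6.50 and 4.80 CPM at 0 h, 2.38 and 2.50 in control and 7.50 and 6.17 in depleted libraries (control to depleted 1.48, SE 0.25, 95% interval 0.97 to 1.99, adjusted p = 2.63e-06). *ASNS*, asparagine synthetase, had 65.1 and 58.2 CPM at 0 h, 19.0 and 21.3 in control and 33.7 and 37.3 in depleted libraries (0.82, SE 0.10, adjusted p = 3.19e-10). *PSAT1*, of serine synthesis, had 33.8 and 36.1 CPM in control and 58.6 and 53.4 in depleted libraries (0.68, SE 0.08, adjusted p = 7.36e-10). *ATF3*, a stress-induced factor, was 0.74 higher (SE 0.16, adjusted p = 0.000163), a call lost with DESeq2 and without control replicate 2 (highest adjusted p 0.0294). *VLDLR*, a lipoprotein receptor, was lower by a log2 fold change of -0.85 (SE 0.08, adjusted p = 1.44e-12). *ASNS* and *PSAT1* had fallen from 0 h to control, by 1.61 and 1.84 on the log2 scale, as had *PHGDH*, of serine synthesis, by 1.64 and the amino acid transporter *SLC7A5* by 1.25. *SLC3A2*, the heavy chain that carries SLC7A11 to the membrane, differed by 0.05 between the groups at 96 h (adjusted p = 0.641). *ATF4* had 356 and 329 CPM at 0 h, 186 and 185 in control and 226 and 223 in depleted libraries. It was not called at 96 h. At an unadjusted p below 0.05, 5 of the 12 were higher and 2 lower in depleted cells, beside 19.4% and 26.2% of all tested genes. *ATF4* was among the higher. *PHGDH* was among the lower, with 78.9 and 76.3 CPM in control and 70.3 and 67.3 in depleted libraries.

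IAA is an indole, and indoles can be ligands of the aryl hydrocarbon receptor (AHR), of which *NQO1* is a second target. *AHR* itself, *CYP1A2* and *CYP1B1* had no count in any library, *CYP1A1* had at most 5, *AHRR* 6 and *ALDH3A1* 1, so that 3 of 9 genes were tested. None of the 3 was called between the groups at 96 h, by edgeR or by DESeq2. At an unadjusted p below 0.05, where 19.4% of all tested genes were higher, 1 of the 3 was higher. This was *TIPARP*, an AHR target with 36.9 and 39.1 CPM in control and 57.1 and 53.7 in depleted libraries (0.55, SE 0.08, 95% interval 0.39 to 0.70, adjusted p = 7.23e-08), below the fold change threshold. All 3 rose from 0 h to control, where the thresholds called 25.4% of all tested genes higher. *ARNT*, the partner of AHR, rose by 1.11 (SE 0.07, adjusted p = 1.4e-21) and *TIPARP* by 0.97 (SE 0.09, adjusted p = 4.11e-14). Of 14 heat shock and metallothionein genes 13 were tested (*MT1E* had no count), and 0 were called between the groups at 96 h by either tool, with 7 at an unadjusted p below 0.05 (5 higher, 2 lower, beside 19.4% and 26.2% of all tested genes) and a median of -0.02. From 0 h to control 7 of these 13 fell and 2 rose, beside 22.9% and 25.4% of all tested genes. The falls with the smallest adjusted p were those of *MT1X*, a metallothionein, and of the chaperones *HSPA8* (-1.39, SE 0.05, adjusted p = 6.22e-33) and *HSP90AA1* (-1.20, SE 0.05, adjusted p = 2.64e-30). *MT1X* went from 138 ± 13.2 to 7.79 ± 0.776 CPM (-4.14, SE 0.10, adjusted p = 7.27e-41).

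**Figure D5:**
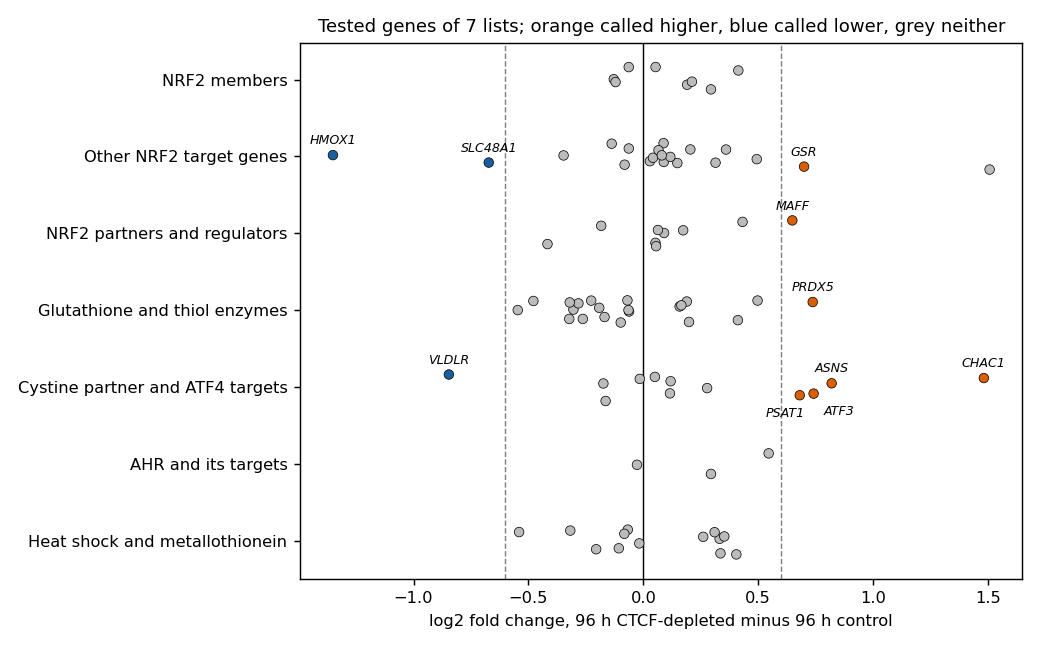
Log2 fold change between 96 h CTCF-depleted and 96 h control cells of every tested gene of the 7 lists (1 point per gene and list, *NQO1* being in 2, orange called higher, blue called lower, grey neither), with dashed lines at the fold change threshold of 0.6. No NRF2 member is coloured, while *HMOX1* lies at -1.35 and *CHAC1* at 1.48; the grey point beyond the right line is *OSGIN1*, whose adjusted p was 0.0256.

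Between the groups at 96 h, 5.41% of all tested genes were called higher and 7.03% lower in depleted cells. Of the 8 B cell markers 1 was called higher and 2 lower, and of the 8 macrophage markers 1 higher and 1 lower. Their part in the differences of *HMOX1*, *GSR* and the ATF4 targets was not tested.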

How the data were processed

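Total RNA libraries of 6 samples in 3 groups were examined. Per the labels and the study's methods, the authors aligned reads to hg38 with STAR 2.6.1d, counted them per gene with featureCounts 2.0.6 over protein-coding exons and deposited raw counts without normalization. The deposited counts hold 30017 symbols and may not be limited to protein-coding genes. The annotation release and strand setting of the counting are not given in the sources used here. The kit keeps strand. Total counts per library were 9273470 to 12718780; PCR reads carry no molecular identifiers, so intervals from counts cover counting error only.

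In R 4.3.3, edgeR 4.0.16 was fitted to all 6 libraries (filterByExpr, TMM, quasi-likelihood test, condition as the only term), with Benjamini-Hochberg adjustment over 14758 genes. The study used DESeq2; its thresholds were applied here to edgeR (adjusted p below 0.01, log2 fold change beyond 0.6 in either direction). Intervals of 95% were computed from the SE. The prior count of log2 CPM was 2. Simulated data were used to check the fit. The alternatives were DESeq2 1.42.0 and the settings named in the closing section. Positions are from GENCODE release 44; summaries used Python 3.11.15, pandas 2.3.3, numpy 2.4.6, scipy 1.17.1 and matplotlib 3.10.9.

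Members and gene lists were chosen with earlier results of these data known. All members, *HMOX1*, *BACH1* and *CTCF* are named. From each other list up to 5 genes called between the groups at 96 h and up to 3 called from 0 h to control, by smallest adjusted p, are named, and the 3 genes most like *NFE2L2* and *NQO1*. Among genes named outside this rule, after their values were seen, are *MAFK*, *ATF4*, *PRDX2*, *PRDX3*, *PRDX4* and *PRDX6*. The lists were described by counts, without set tests. Biological replicates are taken as separate cultures only as far as the labels say. The p-values of edgeR set a difference between groups against a spread estimated over all groups and partly shared across genes. They cover these samples only.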

Additional observations from a re-analysis of the deposited data

How the results depend on the processing

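The settings tried were DESeq2, RLE scaling, keeping all genes, a minimum of 10 counts per library, a fit of the 4 compared libraries alone, the replicate block, each library left out in turn, and a threshold of 0.05 on the adjusted p with none on the fold change. Of the counts of called members and other NRF2 targets, 145 stayed within 1.5 times and 11 moved; of the members' log2 fold changes, 302 kept their direction and their side of the thresholds, 7 passed newly, 2 no longer passed and 1 changed sign. The threshold of 0.05 on the adjusted p alone gave 3 members higher in depleted than in control cells in place of 0, and 3 members lower than at 0 h in place of 1 in both control and depleted cells. For the other targets it gave 5 higher and 4 lower between the groups at 96 h in place of 1 and 2, 8 lower from 0 h to control in place of 5, and 14 higher from 0 h to depleted cells in place of 9. The same threshold called 16.1% of all tested genes higher and 22.6% lower between the groups at 96 h, 37.3% lower from 0 h to control, and 39.2% higher and 38.3% lower from 0 h to depleted cells. The other targets lower in depleted than in control cells were 1 with DESeq2, 1 with the minimum of 10 counts, where *HMOX1* is removed by construction, and from 1 to 2 when a library was left out. The count of 1 came without depleted replicate 1 and without control replicate 1, where *SLC48A1* was lost. The sign of *GCLM* between the groups at 96 h went from -0.06 to 0.0028 without control replicate 1 (range with a library left out -0.0655 to 0.0028); the cause was not tested. *NQO1* from 0 h to control no longer passed with DESeq2 or without control replicate 1. RLE in place of TMM moved the median of all genes by at most 0.0136 on the log2 scale.

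Replicate numbers were not treated as pairs, since the deviations of same-numbered libraries correlated at -0.0194, 0.0109 and -0.0294. With the replicate block, 0 members were called between the groups at 96 h, and 4 were higher and 1 lower than at 0 h in control and in depleted cells, as without it. A fit without 1 library assumes that the lone library left in a group varies like the others. The low counts of *NQO1* limit what can be said of it, and effects of IAA and of CTCF loss cannot be told apart.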
